A study of Homo sapiens with 16 samples.

Results

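Downstream-of-gene transcripts (DoGs) found in the interphase fraction of HEK293 cells both with and without osmotic stress are described here. They were chosen by listing alone: a gene was included when all 4 SERIPH 2nd-step libraries, 2 control and 2 stressed, listed a DoG for it and when the deposited expression table held a value for its region. Of 222 genes that met the listing, 220 had such a value, out of 3139 DoGs with values and 3505 genes listed in any library. The 2 SERIPH 2nd-step control libraries shared 595 listed genes and the 2 stressed ones 2031. The 4 libraries that chose the members are given below as a description, without tests, and every comparison tested is between libraries among the other 12, although the estimate of the spread in the fit also drew on these 4. The region over which a gene was measured could also come from these 4. ARFGAP2, for example, was measured over 125 kb that only a stressed 2nd-step library listed. The tests are therefore not fully independent of the choice. For some other genes, such as AMD1 with 565 kb, the region came from a stressed hiAGPC library that was itself tested.

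HEK293 is a line derived from human embryonic kidney. Control cells were untreated, and cells in the DoG-inducing condition received 200 mM sorbitol, a source of osmotic stress, and 100 μg/mL cycloheximide, an inhibitor of translation, for 9 h. RNA of each condition was prepared by conventional acid phenol extraction, by hiAGPC (the same extraction with heating, which releases RNA that otherwise stays out of the aqueous phase), and by SERIPH, which yields the aqueous phase as a 1st-step fraction and RNA recovered from the interphase as a 2nd-step fraction. Each of the 8 groups had 2 biological replicates, 16 libraries in all. These groups are 1 cell line, and the 2 agents were given together, so their effects cannot be told apart.

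A DoG arises when RNA polymerase II is not released at the polyadenylation site and goes on into the sequence past the gene. Cleavage normally follows recognition of a hexamer, most often AATAAA or its variant ATTAAA, by the cleavage and polyadenylation machinery, and a GU-rich element past the cleavage site helps. Osmotic stress, heat shock and viral infection are known to bring about such readthrough at many genes at once, and the resulting RNA stays in the nucleus. In the deposited lists a DoG had to reach at least 10 kb past the gene end, and its length grew in windows of 5 kb. FPKM (fragments scaled to the length of the region and to the reads of the library) was computed by the authors over 1 region per gene, which for 215 of the 220 genes was the longest region that any of the 16 libraries listed.

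The gene ends themselves show what the called regions start from. The following 30-base windows, read from GRCh38 on the strand of each gene, end at or just before the last base upstream of the region, with the polyadenylation hexamer in capitals. They belong to genes whose readthrough behaved in different ways below, namely BUB3, with the longest control region, ARHGAP11B, which fell under stress, RPL36, which rose, ALYREF and DNMT1, with high FPKM in every preparation, and EP400, which changed differently in hiAGPC and in the conventional preparation. Only genes with a hexamer in their last 50 bases are shown. PCBP2, HNRNPC, SERBP1, UCHL3, HEATR1, PPIL4 and RRM2 were read in the same way and had none there. For HNRNPC and UCHL3 the region started 1761 and 1452 bases from the gene end in GENCODE v44, so that end was not read.
BUB3, chr10:123170438-123170467, plus strand: tcttcattttaaAATAAAgttttgcacatg
ARHGAP11B, chr15:30649496-30649525, plus strand: ttaaAATAAAatacataataaggtaaactt
RPL36, chr19:5691850-5691879, plus strand: aatcATTAAAtagcttctatgccacactct
ALYREF, chr17:81887839-81887868, minus strand: ccatAATAAAatagaaatgtgtgtagaact
DNMT1, chr19:10133342-10133371, minus strand: ttcaAATAAAtctctcctataaaccaccct
EP400, chr12:132080431-132080460, plus strand: aaaggcaaAATAAAgtgacctttttatata
From the end of the hexamer, 12 bases followed up to the last base of BUB3 and 24 up to that of ARHGAP11B, and both had control DoGs of more than 100 kb in the 2nd-step fraction. The first 60 bases of 3 listed regions follow, with TGTG, the simplest GU-rich word, in capitals where present.
PCBP2, chr12:53481163-53481222, plus strand: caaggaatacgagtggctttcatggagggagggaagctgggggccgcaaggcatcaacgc
BUB3, chr10:123170468-123170527, plus strand: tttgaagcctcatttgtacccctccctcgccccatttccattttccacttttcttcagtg
ARHGAP11B, chr15:30649530-30649589, plus strand: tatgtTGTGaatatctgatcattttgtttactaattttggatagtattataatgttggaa
ARHGAP11B carried the word and the other two did not.

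Over the 220 genes the sequence around the end was like that of DoGs in general. AATAAA lay in the last 50 bases of 50.9% of the genes and ATTAAA in 17.3%, and either in 65.0%, against 65.7% of all DoG genes, 70.1% of the named coding and lncRNA genes that GENCODE v44 holds and 73.4% of its protein-coding genes. For DoG genes the end was the base before the deposited region, and for the annotated genes it was the v44 end. The regions of 159 of the 220 genes started at the v44 end, so the DoG and annotation percentages rest on partly unlike ends. TGTG lay in the first 60 bases of 37.7% of the regions and of 38.8% of all DoG regions. A match to these letters on the gene's strand is a description and no evidence of use. The first 10 kb of the regions had a median GC content of 43.96%, with 46.08% over all DoGs. Of the 220 genes, 215 were protein-coding and 5 were lncRNA genes, and the median gene was 42.2 kb long with 12 exons, against 31.9 kb and 10 exons for all DoG genes.

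The span of the region measured had a median of 75 kb, with a range of 10 to 905 kb. It was 30 kb over all DoGs, 50 kb for the DoGs that both stressed but no control 2nd-step library listed, and 15 kb for those that both control but no stressed 2nd-step library listed. In 80 genes (36.4%) the region ran over at least 1 other named gene on the same strand, up to 7 of them for 1 gene, compared with 21.9% of all DoGs and with 30.9% and 8.61% of the latter pair of sets. These differences were not tested. No region overlapped that of another of the 220 genes. Reads of genes inside a region may enter its FPKM, and their part in the values was not tested.

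In the 4 libraries that chose them, the genes had a median region of 12.5 kb in control and 61.25 kb under stress. The region was at the minimum of 10 kb in both control libraries for 109 genes and in all 4 libraries for 8. It was 100 kb or longer on average for 7 genes in control and for 74 under stress. Median FPKM was 0.435 in both control libraries and 1.20 in both stressed libraries. Just outside the rule were 106 genes with FPKM that 3 of the 4 libraries listed, and their median over the 2-library means was 0.613 in control and 0.843 under stress. For the 109 genes just inside, at 10 kb in both control libraries, the same medians were 0.385 and 1.31.

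**Figure D1:**
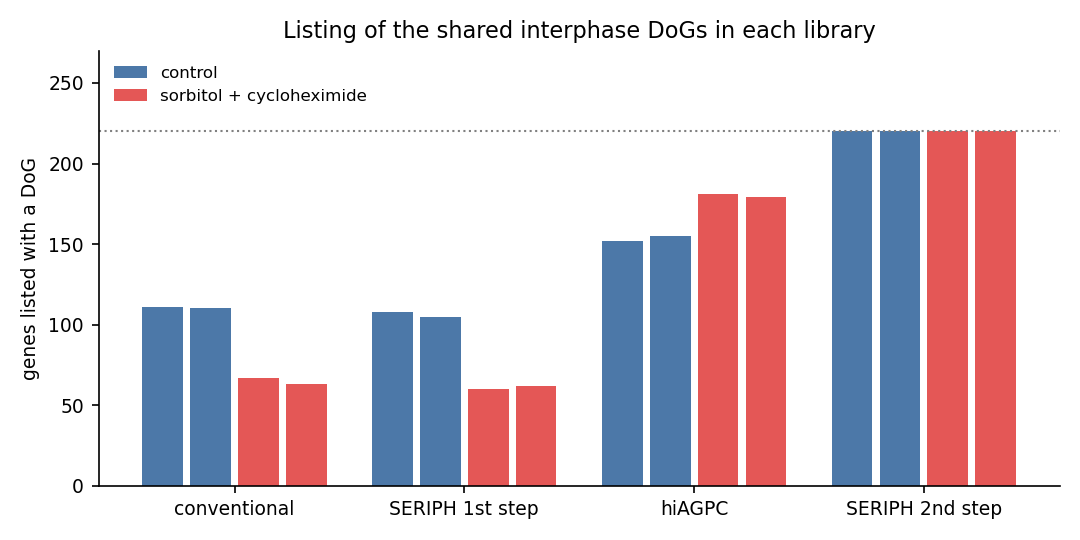
Number of the 220 genes listed with a DoG in each of the 16 libraries, as bars grouped by preparation, with blue for control and red for sorbitol and cycloheximide; the dotted line marks 220, which the choice of members fixes for the SERIPH 2nd step. Listing fell from 111 and 110 to 67 and 63 under stress in the conventional preparation and rose from 152 and 155 to 181 and 179 in hiAGPC.

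Outside the interphase fraction, fewer of the genes were listed under stress than in control in both aqueous preparations, and more of them in hiAGPC. The conventional libraries listed 111 and 110 of the 220 genes in control and 67 and 63 under stress. The SERIPH 1st-step libraries listed 108 and 105 in control and 60 and 62 under stress. In hiAGPC the numbers were 152 and 155 in control and 181 and 179 under stress, so the 2 conditions did not overlap in any of the 3 preparations. With 2 libraries against 2, no exact test of such a count can pass 0.05. The lists as wholes became longer under stress in all 3 preparations, from 351 and 330 genes to 418 and 380 in conventional RNA, from 289 and 326 to 343 and 400 in the 1st-step fraction, and from 486 and 478 to 1789 and 1747 in hiAGPC. In hiAGPC the 220 genes therefore went from 31.3% and 32.4% of the list to 10.1% and 10.2% of it, although more of them were listed. Both conditions and both replicates listed 114 of the genes in hiAGPC, 48 in conventional RNA and 43 in 1st-step RNA. All 12 of these libraries listed 39 genes, none listed 10, and the median gene was listed in 6.

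Among the genes listed in all 4 hiAGPC libraries, most DoGs were listed as longer under stress. For the 114 genes listed in its 4 libraries, the median length was 10 kb in control and 47.5 kb under stress, with a median ratio of 3.50 and a geometric mean ratio of 3.89. Both stressed libraries gave a longer region than both control libraries for 88 of them (77.2%), compared with 63.4% of the 172 genes that hiAGPC listed in all 4 libraries, and both gave a shorter region for 3, compared with 4.65%. The 114 genes make up most of those 172, and the 58 others had a median ratio of 1.00. No DoG could be listed under 10 kb, so a gene at 10 kb in control could only keep its length or gain. Genes that shrank below 10 kb left the comparison. Of the 220 genes, 14 were listed in both control and neither stressed hiAGPC library, and 37 the other way. The ratios and counts are thus tilted toward longer regions. The 48 genes of the conventional preparation went from a median of 10 kb to 12.5 kb, and the 43 of the 1st-step fraction from 10 kb to 15 kb. Among the 74 genes whose region touched no other named gene on the strand, the hiAGPC ratio was 2.5.

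**Figure D2:**
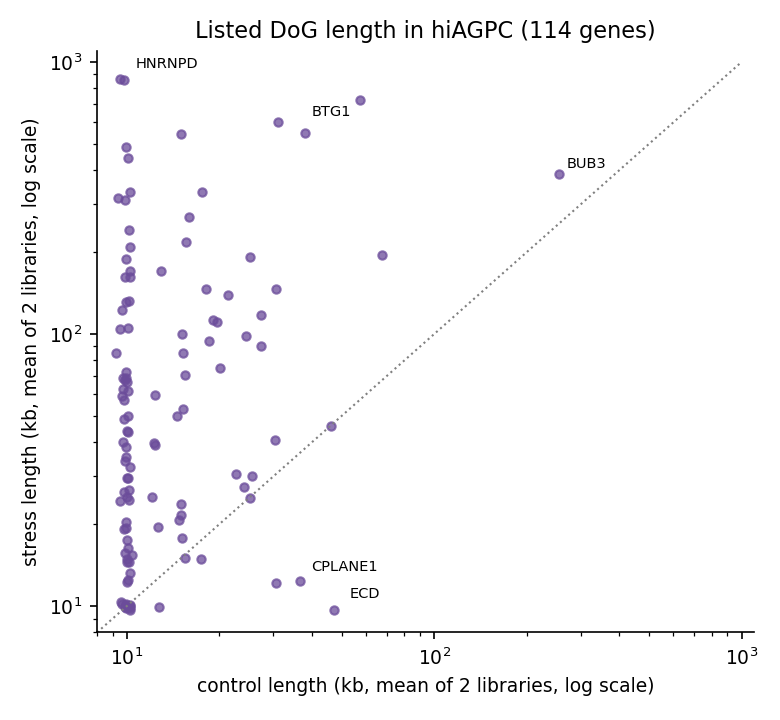
Mean listed DoG length of 2 hiAGPC libraries under stress against that in control, in kb on log axes, for the 114 genes listed in all 4 of them; each point is a gene, moved by a few percent at random so that points at 10 kb can be seen, and the dotted line marks equal lengths. Of these, 96 lie above the line, 13 on it and 5 below it, with HNRNPD at 10 and 885 kb.

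HNRNPD, whose protein binds AU-rich elements of mRNAs, had the largest length ratio in hiAGPC, from 10 kb in both control libraries to 895 and 875 kb under stress. MORF4L1, a subunit of chromatin-modifying complexes, was 10 kb in both control libraries and 840 kb in both stressed ones, a span that held 3 other named genes of the strand. For DHX15, the helicase that takes spent spliceosomes apart, the lengths were 10 kb in both control libraries and 475 and 525 kb under stress. These 3 regions grew by ratios of 88.5, 84.0 and 50.0. The smallest ratios belonged to genes with a control DoG of some length. ECD, a cell cycle regulator, was listed at 50 kb in both control libraries and at 10 kb in both stressed ones. CPLANE1, which acts in the making of cilia, went from 35 and 40 kb to 10 and 15 kb, and SDHAF2, an assembly factor of succinate dehydrogenase, from 30 kb in both to 15 and 10 kb. In these 3 genes every stressed hiAGPC region was shorter than every control region.

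The level followed the same order of preparations as the listing. Median FPKM over the 220 genes was 0.235 and 0.230 in the conventional control libraries and 0.270 and 0.235 in the stressed ones. It was 0.230 and 0.215 in the SERIPH 1st-step control libraries and 0.240 in both stressed ones. In hiAGPC it was 0.320 and 0.330 in control and 0.895 and 0.885 under stress. The 2 aqueous preparations thus differed little between conditions in the median gene, while in hiAGPC the stressed libraries stood well above the control ones. FPKM is a share of the reads of a library, so more DoG RNA and less of other RNA cannot be told apart, and the reads used for scaling were not given in the sources used here.

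**Figure D3:**
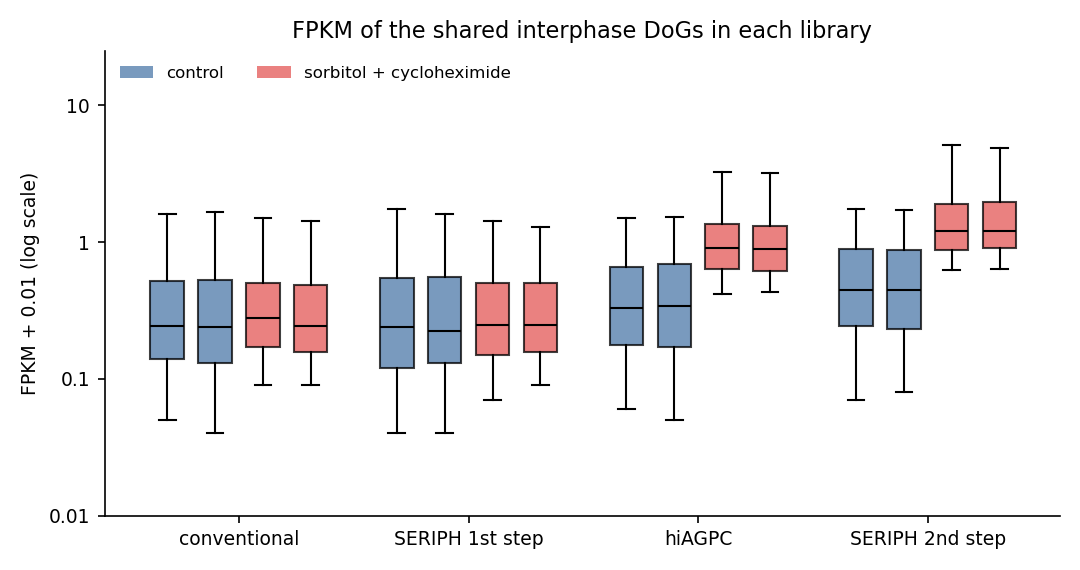
FPKM plus 0.01 of the 220 genes in each of the 16 libraries on a log axis, with blue for control and red for sorbitol and cycloheximide; boxes span the quartiles, lines mark the median and whiskers reach from the lowest to the highest 5%. Medians in hiAGPC are 0.320 and 0.330 in control and 0.895 and 0.885 under stress, and the SERIPH 2nd-step boxes are those of the libraries that chose the genes.

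Changes were tested with limma on log2(FPKM + 0.1), a scale that understates changes of low values, in 1 fit of all 3139 DoGs and 16 libraries. To be called, a DoG needed a p-value under 0.05 after Benjamini-Hochberg adjustment and a log2 fold change of 1 or more in either direction. Here and below a log2 fold change compares stress with control unless another pair is named.

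In hiAGPC, 116 of the 220 genes rose under stress and 3 fell, while 70.2% of all DoGs rose and 9.14% fell. All 116 were measured over a region longer than any control library listed, and the region could come from the stressed libraries tested. As shares of the 220 genes these are 52.7% and 1.36%, both below the shares of the whole table, a difference that was not tested. The median log2 fold change was 1.21, against 1.86 over all DoGs. The DoGs listed in both stressed but in no control 2nd-step library, 1734 in number, had a median of 2.33, and the 302 listed in both control but in no stressed library had a median of -1.32. The 220 genes lay between, but the 2 sets were chosen in opposite directions, so this order was fixed in part by the choice. Without the first control hiAGPC library 5 genes fell in place of 3. When each library was centred on its median over all DoGs, which rose by 1.92 on the log2 scale from control to stress in hiAGPC, 29 of the genes were called higher and 97 lower. Relative to the median of all DoGs, most of the calls among these genes were thus downward. The share of all DoGs called after centring is not given here or below, so the centred counts cannot be read as particular to the 220 genes.

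In conventional RNA 31 genes rose and 29 fell, with 22.2% of all DoGs higher and 11% lower. In the SERIPH 1st-step fraction 33 rose and 25 fell, with 21.8% and 10.6% of all DoGs. The medians were 0.06 and 0.14, against 0.44 and 0.43 over all DoGs. Centring, with shifts of 0.56 and 0.50, gave 12 higher and 57 lower in conventional RNA and 12 higher and 53 lower in the 1st-step fraction. Among the 116 genes that rose in hiAGPC, 31 rose in conventional RNA and the other 85 were not called there. The 29 that fell in conventional RNA included the 3 that fell in hiAGPC, and the other 26 were not called in hiAGPC. No gene was called upward in one and downward in the other by limma, at the threshold given.

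**Figure D4:**
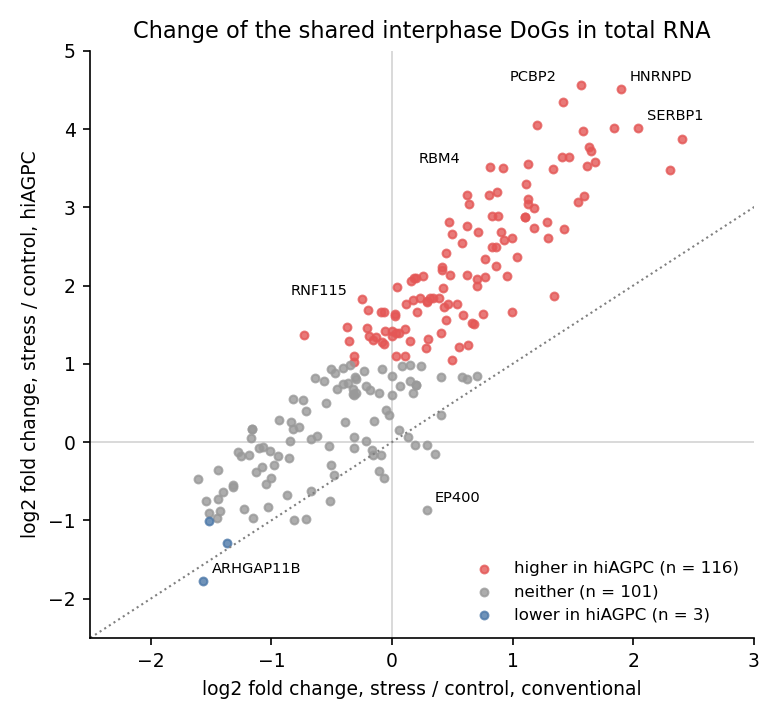
Log2 fold change of FPKM + 0.1 under stress in hiAGPC against that in the conventional preparation for the 220 genes, coloured by the call in hiAGPC before any centring on library medians; the dotted line marks equal change. The 116 genes that rose in hiAGPC lie above the line, PCBP2 at 4.56 and 1.57, and EP400 lies below it at -0.87 and 0.29.

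The 6 genes that rose most in hiAGPC were PCBP2, HNRNPD, HNRNPC, AUNIP, RPL36 and SERBP1. PCBP2, a poly(C)-binding protein of chromosome 12 (gene ENSG00000197111.17, chr12:53452102-53481162, region chr12:53481163-53937608), had an FPKM of 0.05 and 0.04 in the hiAGPC control libraries and of 3.38 and 3.24 under stress. Its log2 fold change of 4.56 (SE 0.107, limma adjusted p = 1.16e-12) was the largest of the 220. In conventional RNA the same region read 0.05 and 0.05 in control and 0.37 and 0.32 under stress, a smaller rise of 1.57 (limma adjusted p = 8.08e-08). Its DoG spanned 10 kb in both hiAGPC control libraries and 411 and 456 kb under stress.

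HNRNPD (chr4:81446523-82351522) read 0.05 and 0.04 in hiAGPC control and 3.21 and 3.18 under stress, a log2 fold change of 4.51 (SE 0.0802, limma adjusted p = 3.07e-13). HNRNPC (chr14:20628370-21207374), which coats uridine-rich stretches of nascent RNA, read 0.14 in both control libraries and 4.87 and 4.66 under stress, a change of 4.34. Its length under stress was 564 kb in one hiAGPC library and 45 kb in the other, although FPKM over the same 579 kb differed by little, so the listed length was less reproducible than the level. SERBP1, an mRNA-binding protein found on ribosomes, read 0.09 in both control libraries and 2.98 and 2.95 under stress, with a change of 4.01. RPL36, of the large ribosomal subunit, read 0.09 and 0.08 and then 3.01 and 2.77, and AUNIP, a partner of the kinase Aurora A, 0.03 in both and then 2.11 and 2.00. Control and stressed libraries did not overlap in any of these 6 genes, and after centring their log2 fold changes were still between 2.09 and 2.64. AUNIP was the only one of the 6 whose region met no other named gene on its strand. In the others the regions ran over between 1 such gene (PCBP2, HNRNPD and SERBP1) and 7 (HNRNPC).

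Only 3 genes fell in hiAGPC, and each had a long DoG in control cells. ARHGAP11B, a partial duplicate of ARHGAP11A found in humans, read 1.71 in both control libraries and 0.41 and 0.45 under stress, a log2 fold change of -1.77 (SE 0.0838, limma adjusted p = 4.73e-10). It was listed at 60 kb in both hiAGPC control libraries and in neither stressed one, and it fell alike in conventional RNA, from 0.90 and 0.88 to 0.23 and 0.24. UCHL3, a ubiquitin hydrolase, read 1.05 in both control libraries and 0.49 and 0.45 under stress, a change of -1.01 that came to -0.96, short of a call, without the second stressed library. It was 95 kb long in both control libraries and unlisted under stress, and its region ran into LMO7. FAM66D, a lncRNA gene of a multicopy family, read 0.78 and 0.73 and then 0.26 and 0.24, with a change of -1.29. For ARHGAP11B and FAM66D reads may be shared with near-identical copies, and since only uniquely mapped reads were kept their levels are uncertain.

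Other genes also had a long DoG in control cells. BUB3, of the spindle assembly checkpoint, had the longest control region (chr10:123170468-123665467 in all), at 260 and 245 kb in hiAGPC and 370 kb in both 2nd-step libraries, and only 35 kb in the conventional libraries. Its FPKM in hiAGPC was 0.73 and 0.74 in control and 1.33 and 1.24 under stress, a log2 difference of 0.73 that did not reach the fold threshold and turned to -1.19 after centring. The region holds no other named gene of the strand. BTG1, an antiproliferative gene with control lengths of 35 and 40 kb in hiAGPC, reached 590 kb in both stressed libraries, and its FPKM went from 0.13 and 0.12 to 1.90 and 1.89 (log2 fold change 3.15, limma adjusted p = 2.00e-12). BUB3 and BTG1 were listed in all 16 libraries. ECD, at 110 kb in both 2nd-step control libraries, read 1.08 and 1.10 and then 0.67 and 0.68 in hiAGPC, a difference of -0.62 that missed the fold threshold.

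The highest mean FPKM outside the 2nd-step fraction belonged to DNMT1, ALYREF, ZNF207, DNAJC7 and PPIL4. HEATR1 and ANKRD36C are described with them as genes that all 12 libraries outside that fraction listed. ALYREF, an mRNA export adaptor, was listed in all 16 libraries, at 10 kb in each hiAGPC library, and read 2.48 and 2.53 in control and 2.53 and 2.37 under stress. The values of the 2 conditions overlapped, and the log2 difference was -0.03, or 0.014 without the second stressed library. PPIL4, a cyclophilin-type isomerase, behaved alike in hiAGPC, at 2.62 and 2.61 and then 2.72 and 2.75, a difference of 0.06. Both genes read higher in the conventional control libraries, ALYREF at 3.78 and 4.04 and PPIL4 at 3.85 and 3.65. HEATR1, a factor of ribosome biogenesis, went from 2.58 and 2.45 to 1.17 and 1.28 in hiAGPC, a difference of -0.98 just short of the threshold, which it passed (-1.02 and -1.04) without the second control or the second stressed library. Its listed region grew from 10 kb to 15 kb in the same libraries. ANKRD36C, of an ankyrin repeat family with similar copies, went from 2.46 and 2.56 to 1.23 in both stressed libraries, a difference of -0.97 that reached -1.0 and a call without the first control library, and it fell in conventional RNA by 1.45 (limma adjusted p = 2.99e-07).

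DNMT1, the maintenance DNA methyltransferase, read 2.57 and 2.32 in hiAGPC control and 4.42 and 4.27 under stress, a difference of 0.81 that became -1.11 after centring, and its region held EIF3G. DNAJC7, a co-chaperone whose region held ACLY, read 2.38 and 2.25 and then 2.11 and 2.03. ZNF207, a kinetochore protein, rose from 2.00 and 2.02 to 8.96 and 8.95, the highest stressed level of the 220 genes in hiAGPC, over a region that held PSMD11. Its log2 fold change was 2.10 (SE 0.0558, limma adjusted p = 2.72e-12), and 0.18 after centring. The levels of DNMT1, DNAJC7 and ZNF207 may include reads of the genes inside, which was not tested.

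**Figure D5:**
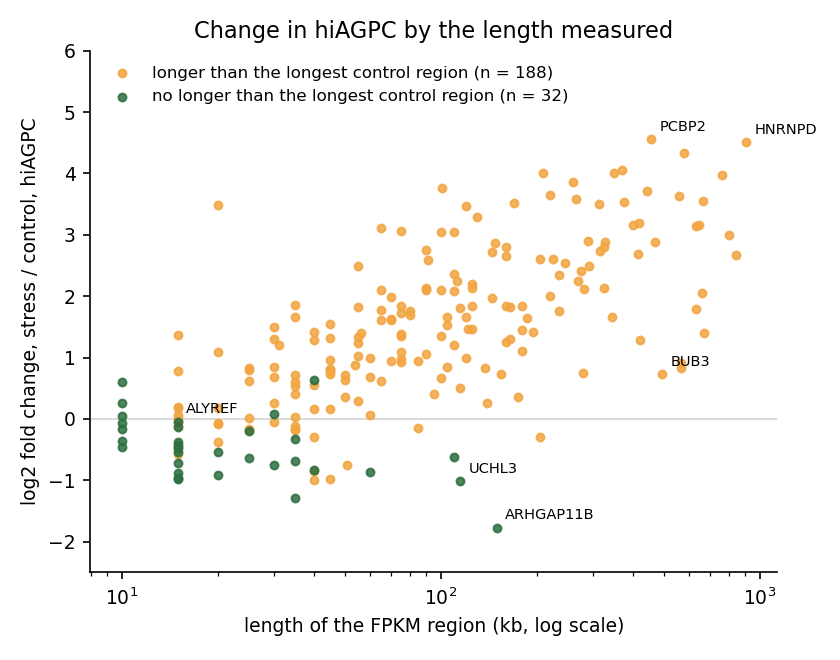
Log2 fold change of FPKM + 0.1 under stress in hiAGPC, before centring, against the length of the region over which FPKM was computed, in kb on a log axis, for the 220 genes. Green points are the 32 genes whose region was no longer than the longest region of any control library, and orange points the 188 others; their medians are -0.50 and 1.42.

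The change in hiAGPC moved with the length over which FPKM was computed. Of the 35 genes measured over 20 kb or less, 3 rose and none fell, with a median log2 fold change of -0.11 (limma, with 5 higher and 13 lower at an unadjusted p under 0.05). Of the 95 measured over more than 20 and up to 100 kb, 38 rose and 1 fell, with a median of 0.82, and of the 90 measured over more than 100 kb, 75 rose and 2 fell, with a median of 2.22. Across the 220 genes the Spearman correlation of length and change was 0.723, as a description, since all genes share the same 4 libraries. Where the region came from a stressed library, control FPKM was averaged over a span that no control library listed. In 32 genes the region was no longer than the longest control region, and among these none rose and 3 fell in hiAGPC, with a median of -0.50 and 2 higher and 21 lower at an unadjusted p under 0.05. In conventional RNA none of the 32 rose and 19 fell, with a median of -1.06 and 1 higher at an unadjusted p under 0.05. The 188 others held all 116 genes that rose, with a median of 1.42. Both sets were formed from listed lengths, some of them of the same libraries, so the medians are a description. Where the region met no other named gene of the strand, 56 of 140 genes rose and 2 fell, with a median of 0.77, and where it did, 60 of 80 rose and 1 fell, with a median of 1.77 and a median region of 157.5 kb. Over all DoGs, undivided, 70.2% rose and 9.14% fell in hiAGPC, and 22.2% rose and 11% fell in conventional RNA. All DoGs were not divided in these ways, so the counts cannot be read as particular to the 220 genes.

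The choice of preparation made more difference under stress than in control cells. Under stress 167 of the 220 genes were higher in hiAGPC than in conventional RNA and none were lower (limma, with 10 lower at an unadjusted p under 0.05), with 68.8% and 0.478% of all DoGs. The median log2 difference was 1.51, against 1.4 over all DoGs. In control cells 2 genes were higher and none were lower (limma, with 102 higher and 16 lower at an unadjusted p under 0.05), with 1.08% and 0% of all DoGs, and the median difference was 0.18. After centring, which took off 1.44 under stress and 0.08 in control, 14 genes were higher and 28 lower under stress and 1 was higher in control.

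RBM4, a splicing regulator, had the largest difference of preparation under stress. It read 4.19 and 3.85 in hiAGPC and 0.35 and 0.31 in conventional RNA, a log2 difference of 3.26 (SE 0.0797, limma adjusted p = 2.46e-11). The corresponding differences of PCBP2 and AUNIP were 2.94 and 2.85. In control cells the 2 genes called were BUB3, at 0.73 and 0.74 in hiAGPC and 0.20 in both conventional libraries (log2 difference 1.48, limma adjusted p = 4.61e-07), and KIAA1958 at 0.33 and 0.34 against 0.12 and 0.10 (1.05, limma adjusted p = 2.27e-05). KIAA1958 dropped to 0.98, short of a call, without the second conventional library, and to 0.97 after centring, and none of the 12 libraries outside the 2nd-step fraction listed it. Without the first or the second conventional control library, 4 and 1 genes were called.

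The change under stress differed between hiAGPC and conventional RNA, by the interaction term of the fit, for 135 genes upward and 1 downward, with 64.0% and 0.733% of all DoGs. The median of this difference was 1.20, against 1.29 over all DoGs. PCBP2, HNRNPC and AUNIP had the largest, at 2.99, 2.93 and 2.85. EP400, a chromatin remodeller, was the 1 gene called downward, at -1.16 (SE 0.108, limma adjusted p = 8.26e-07). It read 1.23 and 1.20 in hiAGPC control and 0.65 and 0.59 under stress, while conventional RNA read 0.63 and 0.58 and then 0.75 and 0.77. EP400 was listed in hiAGPC control at 55 kb in both libraries and in neither stressed library. Centring gave 10 genes upward and 28 downward.

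By gene family, the genes grouped as splicing factors by their symbols rose together in hiAGPC. All 12 of them in the set (HNRNPAB, HNRNPC, HNRNPD, HNRNPR, HNRNPU, RBM4, RBM12B, RBMX, SNRPE, SRSF1, SRSF3 and SRSF7) rose in hiAGPC, by log2 fold changes of 1.62 to 4.51 with a median of 3.34. The group does not hold every gene that acts in splicing. DHX15 and DDX46, grouped with the RNA helicases, differed by 3.64 and -0.99. Over all DoGs 40 of 43 splicing factor genes rose, with a median of 2.66, so the direction was shared with splicing factor DoGs outside the set. Relative to the median of all DoGs the change of the 12 was upward for 10 and downward for RBMX and SRSF7, with a median of 1.42. In conventional RNA 5 of the 12 rose and none fell, with log2 fold changes from 0.16 to 2.41, and all 12 were higher in hiAGPC than in conventional RNA under stress. Among all 43 DoGs of the family, 17 rose and none fell in conventional RNA. Under stress 38 of the 43 were higher in hiAGPC than in conventional RNA. The regions of these genes were long, with a median of 524.5 kb, and 10 of the 12 ran over another named gene. SRSF1, a founding member of the SR proteins, was listed at 30 kb in both hiAGPC control libraries and at 621 kb in both stressed ones, and its FPKM went from 0.31 and 0.30 to 4.76 and 4.58. SRSF3 was listed at 10 kb in both and at 300 and 340 kb, with FPKM of 0.16 in both control libraries and 3.37 and 3.28 under stress. SRSF7, unlisted in hiAGPC control, was listed at 252 and 250 kb under stress and read 0.32 and 0.31 and then 1.34 and 1.32.

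Among the 4 cytosolic ribosomal protein genes, RPL3, RPL11 and RPL36 rose and RPL34 was not called, with a median of 2.28 against 2.58 for the 43 such DoGs in all, of which 37 rose and 1 fell. Relative to all DoGs RPL11 turned downward, and RPL34 was negative before centring, at -0.13, as well as after it. RPL3, of the large subunit, went from 0.05 and 0.04 to 1.61 and 1.48. None of the 3 aminoacyl-tRNA synthetase genes was called, while 4 of all 9 such DoGs rose and 1 fell. TARS1, which charges threonine tRNA, differed by 0.99 and was called without the first control or second stressed library, at 1.03 and 1.02, and it came to -0.93 after centring. MARS2, the mitochondrial methionine enzyme, differed by 0.98 and was called without the first control library, at 1.02, and came to -0.94 after centring. Among 7 C2H2 zinc finger genes 2 rose, ZNF207 and ZNF644, the latter by 1.42 (-0.50 after centring) from 0.29 and 0.27 to 0.91 and 0.92, with a median of 0.29 for the 7 and 1.42 for all 82 DoGs of that family, of which 45 rose and 13 fell.

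Of 4 respiratory chain genes 1 rose in hiAGPC and 2 fell in conventional RNA. Among all 25 DoGs of that family 10 rose and 2 fell in hiAGPC, and 3 rose and 7 fell in conventional RNA. NDUFAF8, an assembly factor of complex I, rose from 0.26 and 0.25 to 0.76 and 0.72, a log2 fold change of 1.24 that turned to -0.68 after centring. COX14, an assembly factor of cytochrome c oxidase, fell in conventional RNA from 0.48 and 0.37 to 0.11 and 0.08 (log2 fold change -1.43, limma adjusted p = 3.93e-07), and in hiAGPC read 0.69 and 0.75 and then 0.33 and 0.36, a difference of -0.88. SDHAF2 fell in conventional RNA from 0.69 and 0.74 to 0.18 in both (-1.54), and differed by -0.75 in hiAGPC. COX14 and SDHAF2 thus moved the same way in both preparations, past the fold threshold in the conventional one alone. The difference between the preparations was 0.54 for COX14 and 0.79 for SDHAF2, neither of which was called.

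Among 5 proteasome and ubiquitin genes 3 rose, with a median of 1.30, and 54 of all 77 such DoGs rose and 5 fell, with a median of 1.72. PSMB1, of the proteasome core, went from 0.10 in both control libraries to 0.64 and 0.59, and RNF115, a ubiquitin ligase, from 0.17 and 0.16 to 0.81 and 0.87. RNF115 differed the other way in conventional RNA, by -0.25, and its interaction of 2.08 was called (limma adjusted p = 9.93e-09). After centring, the hiAGPC change was -0.08 for PSMB1 and -0.09 for RNF115. Of 3 solute carrier genes 2 rose, SLC16A1, a monocarboxylate transporter, by 2.49 and SLC35D1, a nucleotide sugar transporter, by 1.31 (0.57 and -0.60 after centring), and 36 of all 47 DoGs of the family rose and 2 fell, with a median of 1.98. Of 3 RNA helicase genes DHX15 rose by 3.64 and DDX46 differed by -0.99, which passed the threshold without the first control (-1.03) or the first stressed library (-1.06), and 13 of all 21 DoGs of the family rose and none fell, with a median of 1.29. In the annotation used here the DDX46 region starts inside the gene, so its FPKM may hold reads of the gene.

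The other families had few members or none. RRM2, a subunit of ribonucleotide reductase, and CCNB2 were the 2 cell cycle genes, and both rose (CCNB2 turned downward after centring), RRM2 from 0.12 and 0.13 to 1.39 and 1.30 in hiAGPC, where it was listed at 220 kb in both stressed libraries and in neither control library. Both mitochondrial ribosomal protein genes rose, 1 of 2 translation factor genes and 1 of 2 genes of 3′ end processing. Over all DoGs 6 of 11 cell cycle genes rose and none fell, 10 of 16 mitochondrial ribosomal protein genes rose and 4 fell, 23 of 29 translation factor genes rose and 2 fell, and 10 of 11 genes of 3′ end processing rose and none fell. Relative to all DoGs, both genes of each of the latter pair of families and 1 of the mitochondrial ribosomal protein genes turned downward. The 2 antisense lncRNA genes were not called in hiAGPC and fell in conventional RNA, and the 1 chaperone gene, DNAJC7, was not called. Over all DoGs 110 of 127 antisense lncRNA genes rose and 6 fell in hiAGPC, and 38 rose and 5 fell in conventional RNA. Of all 17 chaperone genes 10 rose and 1 fell in hiAGPC. Histone genes, small nucleolar RNA host genes, microRNA host genes, divergent lncRNA genes, osmotic stress genes and immediate early genes had 26, 8, 10, 32, 2 and 8 DoGs in the table and 0 among the 220. Of the 168 genes in no family, 86 rose and 3 fell in hiAGPC, where 70.2% of all DoGs rose and 9.14% fell.

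How the genes were listed in hiAGPC went with their change there, 2 readouts of the same libraries that are given as a description. The 114 genes listed in all 4 libraries had a median log2 fold change of 1.42. The 37 listed in both stressed libraries and in neither control library, among them DNMT1, RRM2, SRSF7 and CDK12, had a median of 1.84. The 14 listed in both control libraries and in neither stressed library, among them ARHGAP11B, UCHL3, FAM66D, EP400 and COX14, had a median of -0.80. CDK12, a kinase of the RNA polymerase II tail, went from 0.19 and 0.17 to 2.40 and 2.22 in hiAGPC, where its DoG was 55 kb long in both stressed libraries. The 12 genes that no hiAGPC library listed had a median FPKM of 0.33 in control and 0.45 under stress, so regions below the listing limit could still be measured.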

How the data were processed

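Stranded, rRNA-depleted RNA-seq libraries of HEK293 cells were analysed, 16 in 8 groups of 2 replicates, sequenced as paired reads of 150 bp to a nominal 20 to 60 M pairs. Per the submitters' processing notes, fastp 0.25.0, Bowtie2 2.5.4, STAR 2.7.11b and DESeq2 were used. The authors kept uniquely mapped reads on GRCh38 and ran ARTDeco on every library with GENCODE v49 to find DoGs, with a minimum length of 10 kb, windows of 5 kb and a coverage of 0.5. The deposited FPKM values were computed by the authors over 1 region per gene and listed to 2 decimals, so whole reads were not recovered, depth per library is unknown, and no counting error is given. With 2 replicates, p-values measure the spread between these libraries. No per-sample column lacked a library (0 unused).

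The members, gene families and comparisons were chosen with earlier results of these data known. Groups came from the sample labels. FPKM was tested as log2(FPKM + 0.1) with limma 3.58.1 (lmFit, eBayes with trend; R 4.3.3), two-sided, over 3139 DoGs and 16 libraries, in 6 comparisons with Benjamini-Hochberg adjustment within each. The model was tested on simulated data. Lengths and counts came from Python 3.11.15, numpy 2.4.6, pandas 2.3.3 and scipy 1.17.1, figures from matplotlib 3.10.9, and sequences from GRCh38 with pysam 0.24.0 and GENCODE v44, an older release than the authors' own. Genes named singly were, among members, the 6 highest and 6 lowest called in hiAGPC under stress, the 3 highest and 3 lowest called between hiAGPC and conventional RNA in each condition, the 5 highest in FPKM, the 5 longest in 2nd-step control, the 3 largest and 3 smallest hiAGPC length ratios, 5 listed in all libraries, those the paper names, and 2 per family of at least 3 members. CDK12, CCNB2, SRSF1, SRSF3, SRSF7, RPL11, RPL34 and EP400 were named after their values were seen. The alternatives were a pseudocount of 0.01 or of 1, a minimum mean FPKM of 0.1, centring on library medians, fits with a replicate block or with only the libraries compared, each library or replicate number left out, and regions without overlap. FPKM regions no longer than a control region, and a replicate block within each condition, were added after seeing the data. Gene expression was not analysed here.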

Additional observations from a re-analysis of the deposited data

Results flagged for a closer look

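The change under stress differed between hiAGPC and the conventional preparation, by the interaction term of the limma fit, for 135 genes with a larger log2 fold change in hiAGPC and for 1 gene with a smaller one. By size the first were PCBP2 at 2.99, HNRNPC at 2.93 and AUNIP at 2.85, and the single gene in the other direction was EP400 at -1.16. Over all DoGs 64.0% had a larger change in hiAGPC and 0.733% a smaller one, against 61.4% and 0.455% of the 220 genes. The count of 135 is therefore near the share of DoGs in general and not particular to these genes. After centring on library medians 10 genes were called upward and 28 downward.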

How the results depend on the processing

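The 4 libraries that chose the members make every 2nd-step value a description, FPKM is compositional, its region often came from a stressed library, and 2 replicates per group and 2 decimals limit the precision of low values. Restricting the fit to the libraries compared or to DoGs with a mean FPKM of at least 0.1 changed no call among the 46 results of single genes. The study's methods state that conventional and hiAGPC extractions shared samples, but the labels do not say whether equal replicate numbers mark 1 sample. Same-numbered deviations correlated between -0.10 and 0.14 over 28 pairs of groups. A replicate block, and one within each condition that was added after seeing the data, each gave 116 higher and 3 lower in hiAGPC, 31 and 29 in conventional RNA, 33 and 25 in the 1st-step fraction, 2 and 0 between hiAGPC and conventional RNA in control, 167 and 0 under stress, and 135 and 1 for the interaction.

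Centring on library medians gave 29 higher and 97 lower in hiAGPC, 12 and 57 in conventional RNA, 12 and 53 in the 1st-step fraction, 1 higher between the preparations in control, 14 and 28 under stress, and 10 and 28 for the interaction. The shares of all DoGs called after centring are not given beside these counts. The hiAGPC change of 108 of the 220 genes was positive before centring and negative after it, among them 51 of the 116 called higher. Of the genes named by rule 11 turned, to -0.080 for PSMB1, -0.93 for TARS1, -0.60 for SLC35D1, -0.50 for ZNF644, -1.11 for DNMT1, -1.86 for PPIL4, -1.19 for BUB3, -1.29 for KIAA1958, -0.68 for NDUFAF8, -0.94 for MARS2 and -0.091 for RNF115. A pseudocount of 0.01 gave 9 lower in hiAGPC, 52 higher in conventional RNA and 10 higher between the preparations in control. A pseudocount of 1 gave 40 higher and 0 lower in hiAGPC, 0 and 0 in each aqueous preparation, 0 higher in control and 29 under stress between the preparations, and 26 higher and 0 lower for the interaction. A pseudocount of 1 shrinks the fold change of low values by construction, and how far this made the counts differ was not tested.

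For genes whose region met no other named gene of the strand, 56 rose in hiAGPC, 14 in conventional RNA and 14 in the 1st-step fraction, 104 were higher in hiAGPC than in conventional RNA under stress and 77 for the interaction, among 140 genes, and the length ratio was 2.5. For the 32 genes with a region no longer than the longest control region, 0 rose in hiAGPC, 0 rose and 19 fell in conventional RNA, 0 rose and 15 fell in the 1st-step fraction, 0 were higher between the preparations in control and 19 under stress, and 5 for the interaction. These sets hold fewer genes, and the same sets were not formed over all DoGs. Listing in either replicate would give 340 members, and a minimum of 20 kb in every library 47.

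Leaving out 1 library gave 117 to 120 higher and 4 to 5 lower in hiAGPC, 30 to 34 and 25 to 28 in conventional RNA, 31 to 33 and 24 to 29 in the 1st-step fraction, 1 to 4 higher and 0 lower between the preparations in control, 164 to 168 and 0 under stress, and 131 to 138 and 1 for the interaction. Medians then ranged from 1.17 to 1.24 in hiAGPC, 0.046 to 0.088 in conventional RNA, 0.071 to 0.14 in the 1st-step fraction, 0.18 to 0.20 in control and 1.45 to 1.55 under stress between the preparations, and 1.15 to 1.24 for the interaction. With 1 replicate number left out in every group they ranged from 1.13 to 1.25, 0.067 to 0.081, 0.057 to 0.14, 0.19 to 0.22, 1.45 to 1.52 and 1.18 to 1.23, in the same order, and the length ratio from 3.33 to 3.88. ALYREF ranged from -0.077 to 0.014, the latter without the second stressed hiAGPC library. The causes of the differences between settings were not tested.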
